A study of Mus musculus with 48 samples.

Results

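The genes of the transcription factors that set and keep hepatocyte identity, 9 of the 55416 genes counted, were followed across genotypes of the nuclear receptor LXRα. They are Hnf4a, Foxa1, Foxa2, Foxa3, Cebpa, Cebpb, Prox1, Onecut1 and Nr5a2. They were chosen by name, with earlier results of these data known, and matched by Ensembl identifier in the sense-strand read counts, and the rule itself uses no measured value. All 9 passed the filter on low counts, which left 15711 genes for testing. They were measured in the livers of 48 mice labelled C57Bl/6J, 8 in each of 6 genotype groups, and every mouse, wild type included, was fed a western diet with 0.2% cholesterol for 8 weeks, from 8 to 16 weeks of age. DN:WT, DN:HET and DN:HOM mice were male littermates, wild type, heterozygous and homozygous for a CRISPR knock-in of the W441R substitution in Nr1h3, the gene of LXRα, which makes the receptor dominant negative. KO:WT, KO:HET and KO:HOM mice had 2, 1 or 0 intact copies of Nr1h3, on a knockout line of mixed origin that was backcrossed for more than 10 generations to C57BL/6. The labels do not give the sex of the KO mice, and the paper describes their study as a repeat of the one with male DN mice. Both alleles were in the germline, so liver cells other than hepatocytes carried them too. The comparisons ask whether the dominant negative receptor acts on the liver beyond simple loss of the receptor. Mutant livers were set against wild-type livers of the same study. The DN:HOM and KO:HOM effects, which share no control livers, were then set against each other. The studies used mice of different colonies at different sites, so study, colony and, if the KO mice were not all male, sex cannot be told apart.

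Hepatocyte identity rests on a small network of factors that bind each other's genes and the same liver enhancers. HNF4α and LRH-1 (Nr5a2) are nuclear receptors, the FOXA proteins open chromatin for other factors, C/EBPα and C/EBPβ are leucine zipper proteins, HNF6 (Onecut1) carries a cut domain and a homeodomain, and PROX1 is a homeodomain protein that also binds HNF4α and LRH-1 as a corepressor. Several of these factors are not private to hepatocytes. Cholangiocytes, the cells of the bile ducts, also use FOXA1, FOXA2 and HNF6, cells of the myeloid lineage use both C/EBP factors, and lymphatic endothelium uses PROX1. In bulk liver, fewer cells of a type and less RNA per cell cannot be told apart.

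Reads on genes lay between 5332897 and 16961379 per liver with a median of 15879971, and 2 livers had fewer than 10000000. Counts were scaled with the trimmed mean of M-values (TMM) and are given as counts per 1000000 reads (CPM). Nr1h3, the targeted gene, had 81.5 to 108 CPM in KO:WT, 48.3 to 65.4 CPM in KO:HET and 25.3 to 31.1 CPM in KO:HOM livers, groups that did not overlap. A point mutation gives no such check in the DN study, although Nr1h3 was also lower in DN:HOM (72.8 ± 3.56 CPM, SD, n = 7) than in DN:WT livers (91.8 ± 5.04 CPM, n = 7). Of the 16 libraries labelled DN:WT or DN:HOM, 2 stood apart and went against their labels. The library labelled DN:WT animal 10 had 71.3 CPM of Nr1h3 against 82.1 to 96.9 CPM in the other DN:WT livers, and the library labelled DN:HOM animal 12 had 86.9 CPM against 68.5 to 77.4 CPM in the other DN:HOM livers. Markers of cholangiocytes summed to 1167 CPM in the library labelled DN:WT animal 10 and to 30.7 to 71.3 CPM in the other 7, and to 43.9 CPM in the library labelled DN:HOM animal 12 against 729 to 1079 CPM in the other 7. The study's own source values for 6 genes of these libraries match 22 DN livers, without these 2, and give no reason. The caption of the paper's RNA-seq heatmap gives n = 8, so other panels of the paper may have held them. As these 2 libraries went against their labels and are absent from those source values, the results come from 46 livers. Values over all 48 are given beside the tests of the factors in DN:HOM livers and beside the list counts. The levels per kilobase, the spread and the correlations are those of the 46 livers. No library was moved to another group.

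The 15 hepatocyte markers were all detected and summed to at least 64611 CPM in every liver of the 46. Sums of cell type markers differed between genotypes. In DN:HOM livers the summed hepatocyte markers lay at 64611 to 73032 CPM and in DN:WT livers at 83489 to 98971 CPM, macrophage markers at 940 to 1543 CPM against 153 to 281 CPM, neutrophil markers at 30.2 to 81.1 CPM against 3.48 to 6.54 CPM, and stellate cell and fibroblast markers at 657 to 913 CPM against 171 to 245 CPM. All 7 cholangiocyte markers rose in DN:HOM livers, with a median log2 fold change of 3.58, and of 2.16 over 48 livers. KO:HOM livers moved less on these lists, with hepatocyte markers at 80469 to 96972 CPM against 97940 to 122212 CPM in KO:WT, macrophage markers at 269 to 1061 CPM against 90.2 to 289 CPM, and cholangiocyte markers at 37.4 to 184 CPM against 24.95 to 102 CPM. The defining Kupffer cell marker Clec4f was near 0 in DN:HOM livers, at a mean of 0.369 CPM against 81.9 CPM in DN:WT, and the neutrophil marker Ly6g was at 0 in all DN:WT, DN:HET, KO:WT and KO:HET livers. T cell markers summed to 3.70 to 5.78 CPM in DN:HOM and 5.48 to 21.7 CPM in KO:HOM livers, B cell markers to 2.32 to 4.28 and 2.28 to 5.66 CPM, endothelial markers to 72.1 to 132 and 110 to 145 CPM, and lymphatic endothelial markers to 14.4 to 22.8 and 12.97 to 32.1 CPM. In DN:HOM livers, where 29.1% of all genes tested rose and 30% fell, 3 of 5 T cell, 3 of 4 lymphatic endothelial, 5 of 5 neutrophil and 6 of 7 stellate cell markers rose and none of these lists had a fall. Macrophage markers split into 7 higher and 3 lower of 10, endothelial markers into 1 higher and 4 lower of 6, and of 4 B cell markers 1 fell. Over 48 livers (23% of genes higher, 25% lower) the rises were 1 T cell, 2 lymphatic endothelial, 3 neutrophil, 6 stellate cell, 6 macrophage, 0 endothelial and again 7 cholangiocyte markers, and the falls 3 macrophage, 4 endothelial and 0 B cell markers. KO:HOM livers had fewer genes called (11.5% higher, 7.87% lower), and there 5 T cell, 6 macrophage, 3 neutrophil, 4 stellate cell, 2 cholangiocyte and 1 endothelial marker rose, and 2 macrophage and 1 endothelial marker fell. Over 48 livers (8.79% higher, 4.12% lower) the rises were 5, 5, 1, 2, 0 and 1, and the falls 1 and 1. The part of these differences in the results for the factors was not tested.

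Per kilobase of exon, which makes genes of different length comparable, the 9 factors fell into tiers in DN:WT livers. Cebpa stood first with 228 ± 32.7 CPM per kb (SD, n = 7), followed by Hnf4a with 93.5 ± 8.92 and Cebpb with 82.3 ± 11.5 CPM per kb. A second tier held Foxa3 (14.3 ± 2.51), Prox1 (13.2 ± 2.75), Foxa2 (11.7 ± 3.84), Foxa1 (7.97 ± 2.57) and Nr5a2 (6.94 ± 0.765 CPM per kb). Onecut1 was the lowest at 0.204 to 3.27 CPM per kb. Every liver of DN:WT had more Cebpa than any had of Hnf4a on this scale, every liver had more Cebpb than any had of Foxa3, and every liver had more Nr5a2 than any had of Onecut1, whereas the other neighbours in the order overlapped. The KO:WT livers gave the same order except that Cebpb (142 ± 26.1 CPM per kb, n = 8) stood above Hnf4a (119.8 ± 21.7 CPM per kb), and these overlapped.

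**Figure D1:**
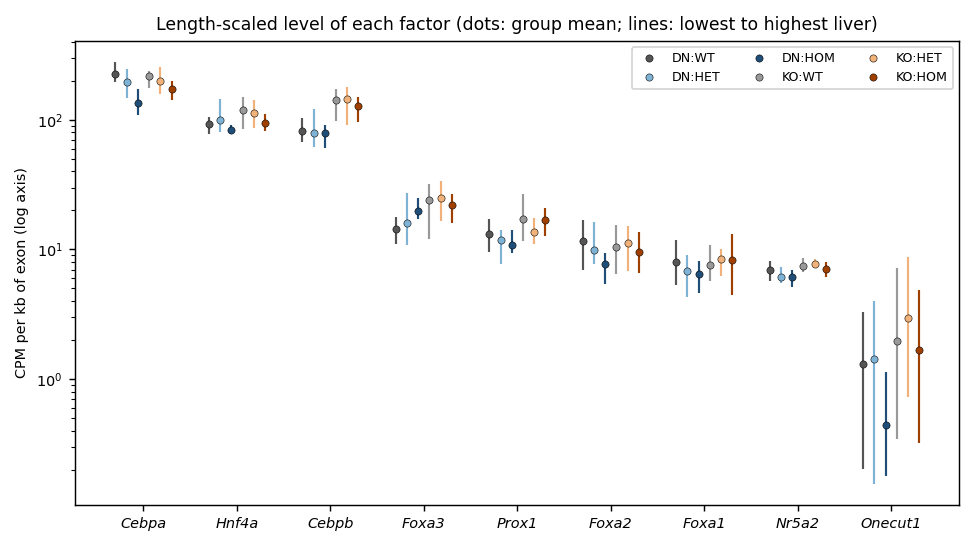
Length-scaled level of each factor in the 6 genotype groups, in CPM per kb of exon on a log axis. Dots are group means over 7 or 8 livers and lines run from the lowest to the highest liver. Cebpa stood at 228 CPM per kb in DN:WT and 136 CPM per kb in DN:HOM livers, and Onecut1 had the longest lines in every group.

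The factors also differed in how far livers of one genotype lay apart. The biological coefficient of variation, the spread between livers of a group beyond counting error, was 0.10 for Nr5a2, a value below which 16.2% of all tested genes lay. It was 0.15 for Hnf4a and Cebpa, 0.19 for Prox1 and Cebpb, 0.23 for Foxa3, 0.24 for Foxa1 and 0.27 for Foxa2, against a median of 0.17 over all genes. For Onecut1 it was 0.82, above that of 99.1% of genes, and the highest DN:HET liver had 25.5 times the level of the lowest.

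**Figure D2:**
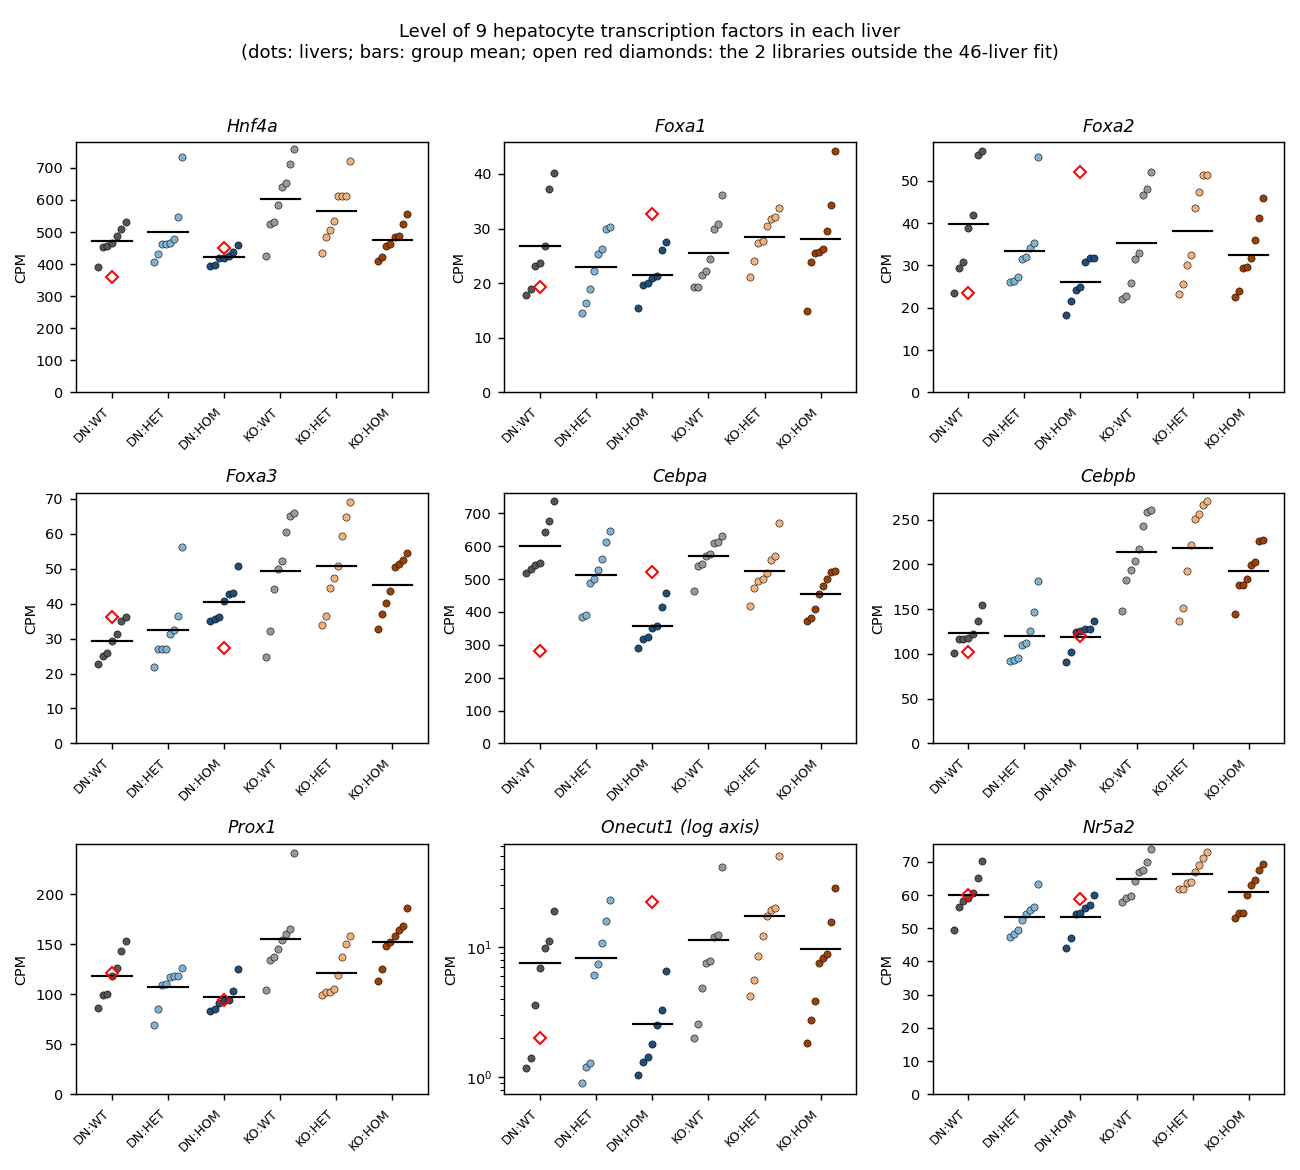
Level of each factor in every liver, in CPM, by genotype group (Onecut1 on a log axis, the others from 0). Filled dots are the 46 livers, bars their group means, and open red diamonds the libraries labelled DN:WT animal 10 and DN:HOM animal 12. The DN:HOM dots of Cebpa, 289 to 458 CPM, lie below all DN:WT dots, 519 to 738 CPM.

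Sequence upstream of the factors is shown for the 4 genes called in DN:HOM livers in the fit of 46 livers. Each stretch holds the 250 bases before the start of the canonical transcript, read 5′ to 3′ on the gene's strand from GRCm39 with GENCODE transcript starts. Capitals mark matches to the motifs searched, on either strand. The coordinates are chr7:34818478-34818727 on the plus strand for Cebpa, chr2:147889006-147889255 on the minus strand for Foxa2, chr7:18757472-18757721 on the minus strand for Foxa3 and chr9:74768868-74769117 on the plus strand for Onecut1.
Cebpa: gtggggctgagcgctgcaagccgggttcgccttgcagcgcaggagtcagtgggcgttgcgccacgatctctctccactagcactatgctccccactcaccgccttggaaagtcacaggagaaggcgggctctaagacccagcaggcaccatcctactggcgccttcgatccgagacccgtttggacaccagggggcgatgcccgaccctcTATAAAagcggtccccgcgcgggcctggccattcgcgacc
Foxa2: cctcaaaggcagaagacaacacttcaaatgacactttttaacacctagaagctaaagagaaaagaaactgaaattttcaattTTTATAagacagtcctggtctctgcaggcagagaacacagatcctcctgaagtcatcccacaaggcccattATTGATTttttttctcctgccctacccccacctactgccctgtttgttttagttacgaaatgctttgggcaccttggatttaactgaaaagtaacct
Foxa3: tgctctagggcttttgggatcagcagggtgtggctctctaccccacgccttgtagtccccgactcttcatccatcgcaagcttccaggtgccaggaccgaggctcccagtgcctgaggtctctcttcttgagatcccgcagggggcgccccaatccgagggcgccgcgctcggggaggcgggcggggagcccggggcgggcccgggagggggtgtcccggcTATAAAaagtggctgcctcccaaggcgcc
Onecut1: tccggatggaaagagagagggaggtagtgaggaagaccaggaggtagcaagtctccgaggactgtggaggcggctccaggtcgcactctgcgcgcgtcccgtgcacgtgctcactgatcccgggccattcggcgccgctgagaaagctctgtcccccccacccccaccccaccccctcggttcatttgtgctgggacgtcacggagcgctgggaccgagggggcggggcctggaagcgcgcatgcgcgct

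The motif search ran on both strands from 250 bases before to 50 after the transcript start of 21770 protein-coding genes. The letters of the TATA box, TATAAA, stood in 5 of the 9 windows (Foxa2, Foxa3, Cebpa, Cebpb and Nr5a2) against 13.2% of all windows, at -40 to -35 in Cebpa and -29 to -24 in Foxa3, counted from the transcript start, at 22 to 27 after it in Cebpb, and on the opposite strand at -168 to -163 in Foxa2 and -113 to -108 in Nr5a2. ATTGANT, a core bound by ONECUT factors, stood in the Foxa2 window at -97 to -91 and in 8.27% of all windows. TGTTTNC, the FOXA core, was matched in Foxa1 and in 19.7% of all windows. The other letters searched, CAAAGTCCA for HNF4 (0.450% of all windows), TTGCNNAA for C/EBP (10.7%), TCAAGGNCA for NR5A2 (1.74%), AGGTCA for a single nuclear receptor arm (15.1%) and TGACGTCA for the cAMP response element (2.44%), were in none of the 9 windows. The LXR element as searched, AGGTCA repeated after any 4 bases, was in 0 of the 21770 windows, so the search says nothing about any of the factors. A match is a description of letters and not evidence of binding.

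Homozygosity for the dominant negative receptor lowered Cebpa. On the 46 livers only, Foxa2 and Onecut1 were also called lower and Foxa3 higher, with Onecut1 at the threshold. In edgeR's quasi-likelihood fit, with p-values adjusted over all 15711 genes by Benjamini and Hochberg's method, 4 of 9 factors had an adjusted p under 0.05 in DN:HOM against DN:WT livers (3 lower, 1 higher). Of all genes, 59.1% were called in this comparison (29.1% higher and 30% lower), so the share among the factors lay below the background. Over all 48 livers, where 48% of genes were called, 1 of the 9 factors was called, Cebpa. The median log2 fold change of the 9 was -0.27, beside -0.01 over all genes. Scaling by library size alone moved the median of all genes to 0.42 and scaling by the summed hepatocyte markers to 0.41. In DN:HOM livers 59.1% and 56% of genes were then called higher and 11.1% and 10.5% lower. Absolute directions of small changes thus turn under these scalings. Such scalings shift all genes of a liver alike, so changes relative to all genes could hardly move and are no check. Loss of the receptor in KO:HOM livers lowered 2 of 9, Cebpa and Hnf4a, where 19.4% of all genes were called (7.87% lower), and over 48 livers, with 12.9% of genes called, 1 of 9, Hnf4a. The median of the 9 was -0.13, beside -0.02 over all genes. In KO:HOM livers library size alone gave 16.7% of all genes higher and 2.78% lower, and hepatocyte marker scaling 38.4% and 1.39%.

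**Figure D3:**
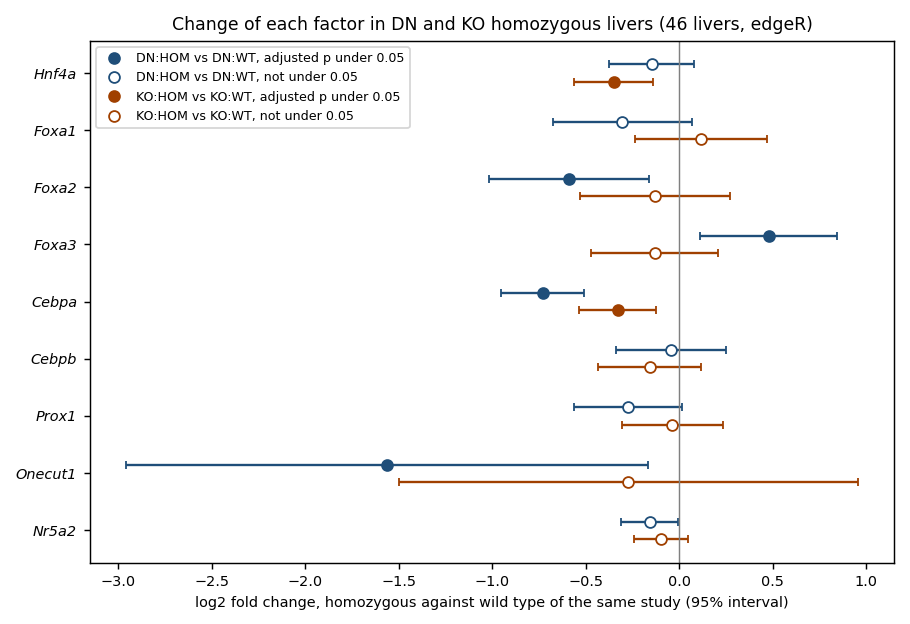
Log2 fold change of each factor in homozygous against wild-type livers of the same study, with 95% confidence intervals from edgeR, in 46 livers. Filled dots mark an adjusted p under 0.05 and open dots the rest. The filled dots are Cebpa, Foxa2 and Onecut1 below 0 and Foxa3 above in DN:HOM livers, and Hnf4a and Cebpa below 0 in KO:HOM livers. In each comparison 8 of 9 factors lie below 0.

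C/EBPα, made by Cebpa (ENSMUSG00000034957, a single-exon gene of chromosome 7 from 34818718 to 34821353 in GRCm39), drives genes of albumin, the urea cycle and glucose production. Its level ran from 519 through a median of 549 to 738 CPM in DN:WT livers, from 385 through 514 to 648 CPM in DN:HET and from 289 through 349.8 to 458 CPM in DN:HOM livers. All 7 DN:HOM livers lay below all 7 DN:WT livers, as did 15.8% of all genes, while DN:HET livers overlapped both. The library labelled DN:WT animal 10 had 282 CPM, below all 7 DN:HOM livers of the fit, and the library labelled DN:HOM animal 12 had 522 CPM. DN:HOM against DN:WT gave -0.73 on the log2 scale, with a standard error of 0.11 (adjusted p = 2.68e-07 by edgeR), and -0.56 over 48 livers (adjusted p = 6.73e-04). Under every alternative tried it stayed lower and under the threshold, with values from -0.73 to -0.30. In the KO study the levels ran from 462 through 573 to 632 CPM in KO:WT, from 419.5 through 509.7 to 671 CPM in KO:HET and from 373 through 466 to 526 CPM in KO:HOM livers. Of the KO:HOM livers, 4 of 8 lay below every KO:WT liver and the others overlapped them. The fall in KO:HOM was -0.33 (standard error 0.10, adjusted p = 0.0184 by edgeR), and over 48 livers -0.32 with an adjusted p of 0.0964. It was -0.22 (adjusted p = 0.0892) with library size alone and -0.06 (adjusted p = 0.624) with hepatocyte marker scaling. The homozygous effect was larger in the DN than in the KO study by -0.40 on the log2 scale (95% interval -0.70 to -0.10, adjusted p = 0.0341 by edgeR, 46 livers). This was the only factor called for the difference of effects, for which 34.7% of all genes were called. Over 48 livers the difference was -0.24 (adjusted p = 0.408), with 10.5% of genes and 0 of 9 factors called by edgeR, and 1 of 9 (Foxa3) at an unadjusted p under 0.05, beside 27.6% of all genes.

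Gm45091, a long noncoding RNA gene on the opposite strand that overlaps the start of Cebpa (chromosome 7, 34817003 to 34819030), also fell in DN:HOM livers. It had 10.1 to 15.6 CPM in DN:WT and 5.23 to 7.41 CPM in DN:HOM livers, which did not overlap, and a log2 fold change of -0.89 (adjusted p = 1.15e-07 by edgeR, and -0.72 with 2.24e-04 over 48 livers, where the groups overlapped). Gm45091 did not pass the test in KO:HOM livers (-0.17, adjusted p = 0.344), where Cebpa was called lower. Its ratio to the CPM of Cebpa was 0.0195 ± 0.00270 (SD, n = 7) in DN:WT and 0.0175 ± 0.00310 in DN:HOM livers, and 0.0198 ± 0.00190 (n = 8) in KO:WT and 0.0221 ± 0.00220 in KO:HOM livers. The counts were assigned by strand, with 6.97 to 8.62 times as many reads on genes as by the opposite strand setting, and whether some of these reads came from Cebpa itself was not tested.

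C/EBPβ, the acute phase member of the pair, did not pass the test for genotype in either study with TMM scaling. Its sign in DN:HOM livers turned with library size alone and with hepatocyte marker scaling. Cebpb (chromosome 2, 167530835 to 167532338) ran from 101 through 118 to 155 CPM in DN:WT and from 90.7 through 125 to 136 CPM in DN:HOM livers, with a log2 fold change of -0.04 (95% interval -0.34 to 0.25, adjusted p = 0.814 by edgeR, and -0.02 with 0.902 over 48 livers). In KO:HOM against KO:WT livers it was -0.16 (95% interval -0.43 to 0.12, adjusted p = 0.459). The ratio of Cebpa to Cebpb CPM fell from 4.24 to 5.45 in DN:WT livers to 2.12 to 3.60 in DN:HOM livers, 2 ranges that did not overlap in the 46 livers (the libraries labelled DN:WT animal 10 and DN:HOM animal 12 had 2.74 and 4.35), whereas KO:WT (2.12 to 4.26) and KO:HOM livers (1.64 to 3.30) overlapped. Macrophage markers summed to several times more in DN:HOM than in DN:WT livers, as given above, and the part of myeloid Cebpb in these levels was not tested. Cebpb overlaps Peds1 on the other strand, a protein-coding gene that fell in DN:HOM livers (-0.46, adjusted p = 0.00354, and -0.34 with 0.0360 over 48 livers), and counted without strand its mean in DN:WT was 76.3 CPM in place of 123.7 CPM.

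Among the FOXA factors, Foxa2 fell and Foxa3 rose in DN:HOM livers, and Foxa1 did not pass the test. Foxa2 (chromosome 2, 147884797 to 147889005) ran from 23.5 through 38.9 to 57.1 CPM in DN:WT and from 18.4 through 24.8 to 31.9 CPM in DN:HOM livers. The groups overlapped, but all 7 DN:HOM livers lay below the DN:WT median. The fall was -0.59 on the log2 scale with a standard error of 0.21 (adjusted p = 0.0151 by edgeR). The call was lost with library size alone (-0.15, adjusted p = 0.505) and with hepatocyte marker scaling (-0.15, adjusted p = 0.509). Over 48 livers it was -0.36 (adjusted p = 0.166), the library labelled DN:HOM animal 12 having 52.0 CPM and that labelled DN:WT animal 10 having 23.4 CPM. Foxa1 (chromosome 12, 57587414 to 57593702), the closest relative of Foxa2, ran from 17.9 to 40.1 CPM in DN:WT and from 15.5 to 27.5 CPM in DN:HOM livers, with a log2 fold change of -0.30 that did not pass the test (95% interval -0.68 to 0.07, adjusted p = 0.157, and -0.18 with 0.434 over 48 livers). With library size alone and with hepatocyte marker scaling the sign of Foxa1 turned. The intervals of Foxa1 and Foxa2 overlapped, and their difference was not tested.

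Foxa3 (chromosome 7, 18747209 to 18757471), on average the most abundant FOXA gene per kilobase in every genotype group, went the other way. It ran from 22.6 through 29.4 to 36.2 CPM in DN:WT and from 35.01 through 40.7 to 50.9 CPM in DN:HOM livers. Of the DN:HOM livers, 4 of 7 lay above every DN:WT liver and 7 of 7 above the DN:WT median. The ratio of Foxa3 to Foxa2 CPM was 0.439 to 1.13 in DN:WT and 1.13 to 2.05 in DN:HOM livers, ranges that overlapped at their ends, and 1.55 and 0.524 in the libraries labelled DN:WT animal 10 and DN:HOM animal 12. The rise was 0.48 on the log2 scale (standard error 0.18, adjusted p = 0.0215 by edgeR), and 0.36 (adjusted p = 0.0759) over 48 livers. The libraries labelled DN:WT animal 10 and DN:HOM animal 12 had 36.3 and 27.2 CPM. The rise was larger where counts were scaled by library size alone (0.91) or by the hepatocyte markers (0.91). In the KO study Foxa3 did not pass the test (-0.13, 95% interval -0.47 to 0.21, adjusted p = 0.638), nor did Foxa1 (0.12, 95% interval -0.23 to 0.47) or Foxa2 (-0.13, 95% interval -0.53 to 0.27). The Foxa3 effects of the studies differed by 0.61 with an adjusted p of 0.0510, and by 0.49 with 0.181 over 48 livers, neither under the threshold, though 6 of 9 alternatives put it under.

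HNF6, the product of Onecut1 (chromosome 9, 74769118 to 74800594), is a factor of bile duct and hepatocyte development. In DN:WT livers its level ran from 1.18 through a median of 6.93 to 19.01 CPM, which rest on 16 to 273 reads. The DN:HOM livers ran from 1.04 through 1.79 to 6.59 CPM (23 to 134 reads), within the range of the DN:WT livers but for 1 liver. The log2 fold change of -1.56 had a standard error of 0.69 and an adjusted p of 0.0497 by edgeR, at the threshold. Over 48 livers it was -0.48 (adjusted p = 0.586), the library labelled DN:HOM animal 12 having 22.4 CPM, and 8 of 10 alternatives put it above the threshold. KO:WT livers ran from 1.99 through 7.71 to 41.8 CPM, KO:HET from 4.23 through 14.9 to 50.7 CPM and KO:HOM from 1.85 through 7.94 to 28.3 CPM, with no call. The summed cholangiocyte markers were 729 to 1079 CPM in the DN:HOM and 30.7 to 71.3 CPM in the DN:WT livers of the fit, and their part in the level of Onecut1 was not tested.

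HNF4α, the product of Hnf4a (ENSMUSG00000017950, chromosome 2, 163348728 to 163414830), is the nuclear receptor most needed for hepatocyte differentiation. Hnf4a ran from 392 through 467 to 530.1 CPM in DN:WT and from 394 through 419.8 to 459 CPM in DN:HOM livers. All 7 DN:HOM livers lay below the DN:WT median but within the DN:WT range. The log2 fold change of -0.15 did not pass the test (95% interval -0.37 to 0.08, adjusted p = 0.259 by edgeR, and -0.10 with 0.432 over 48 livers), and its sign turned to 0.28 under scaling by library size alone, where it passed (adjusted p = 0.0182), and to 0.27 under scaling by hepatocyte markers. In the KO study it ran from 424 through 612 to 759.5 CPM in KO:WT, from 434 through 573 to 719.9 CPM in KO:HET and from 410.0 through 473 to 557 CPM in KO:HOM livers. All 8 KO:HOM livers lay below the KO:WT median. The fall was -0.35 (standard error 0.10, adjusted p = 0.0137 by edgeR), and -0.34 (adjusted p = 0.0233) over 48 livers. It was -0.23 (adjusted p = 0.103) with library size alone and -0.07 (adjusted p = 0.657) with hepatocyte marker scaling. The effects of the studies differed by 0.20 (95% interval -0.11 to 0.51, adjusted p = 0.321), which shows neither that they differ nor that they are alike.

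Hnf4aos, a long noncoding RNA gene on the opposite strand (chromosome 2, 163325137 to 163383642), fell in DN:HOM livers while Hnf4a did not pass the test. It lies on the minus strand, with an annotated start at 163383642. It had 3.21 to 7.71 CPM (45 to 109 reads) in DN:WT and 0.316 to 1.48 CPM (7 to 30 reads) in DN:HOM livers, which did not overlap. The library labelled DN:WT animal 10 had 0.405 CPM and that labelled DN:HOM animal 12 had 6.22 CPM. The log2 fold change was -2.70 (adjusted p = 6.13e-09 by edgeR), and -1.72 (adjusted p = 0.00151) over 48 livers. In KO:HOM against KO:WT livers it was -0.68 and did not pass the test (adjusted p = 0.1002), and the difference of the effects was -2.025 (adjusted p = 3.97e-04), and -1.05 over 48 livers (adjusted p = 0.250). As a ratio to the CPM of Hnf4a it was 0.0115 ± 0.00360 (SD, n = 7) in DN:WT and 0.00190 ± 0.00110 in DN:HOM livers.

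**Figure D4:**
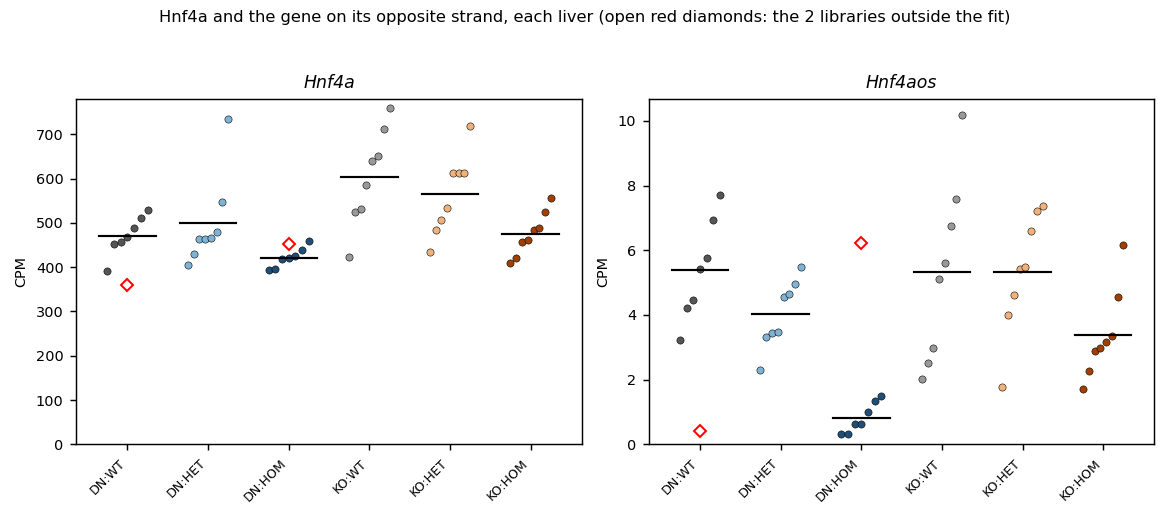
Level of Hnf4a and of the antisense gene Hnf4aos in every liver, in CPM from 0, by genotype group. Dots are the 46 livers, bars group means and open red diamonds the 2 libraries outside the fit. The DN:HOM dots of Hnf4aos lie at 0.316 to 1.48 CPM, below all DN:WT dots, while those of Hnf4a overlap with DN:WT.

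PROX1 and LRH-1 did not pass the test for homozygosity in either study with TMM scaling. Both signs in DN:HOM livers turned with library size alone and with hepatocyte marker scaling. Prox1 (chromosome 1, 189850232 to 189904637) ran from 86.0 through 119 to 153 CPM in DN:WT and from 83.7 through 93.9 to 126 CPM in DN:HOM livers (log2 fold change -0.27, 95% interval -0.56 to 0.02, adjusted p = 0.0997 by edgeR, and -0.29 with 0.0643 over 48 livers). In the KO study it ran from 103.97 through 149 to 241 CPM in KO:WT and from 114 through 155 to 186 CPM in KO:HOM livers (-0.04, 95% interval -0.31 to 0.23, adjusted p = 0.889). Its antisense gene Prox1os (chromosome 1, 189900844 to 190030181) fell in DN:HOM livers from 5.52 to 9.34 CPM in DN:WT to 1.99 to 4.64 CPM, which did not overlap (-1.097, adjusted p = 7.46e-06 by edgeR, and -0.89 with 5.55e-04 over 48 livers, where they did). Lymphatic endothelial markers, which share cells with Prox1, summed to 11.1 to 16.4 CPM in DN:WT and 14.4 to 22.8 CPM in DN:HOM livers. Nr5a2 (chromosome 1, 136770303 to 136888186) ran from 49.5 through 59.2 to 70.3 CPM in DN:WT and from 43.9 through 54.6 to 60.0 CPM in DN:HOM livers (-0.16, 95% interval -0.31 to -0.00, adjusted p = 0.0722, and -0.15 with 0.0688 over 48 livers). In KO:HOM against KO:WT livers it was -0.10 (95% interval -0.24 to 0.05, adjusted p = 0.363). As the least variable of the 9, it also had the narrowest intervals.

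In heterozygous livers no factor had an adjusted p under 0.05, and few genes of any kind did, so the absence of calls is no result about the factors. By edgeR, 0 of 9 factors were called in DN:HET against DN:WT livers, where 2.30% of all genes were called, and 2 of 9 had an unadjusted p under 0.05 (Nr5a2 at -0.17 and Cebpa at -0.23), as did 13.3% of all genes. In KO:HET against KO:WT livers, where 0.0191% of all genes were called, 0 of 9 were called and 1 of 9 had an unadjusted p under 0.05 (Prox1 at -0.36), as did 6.24% of all genes. DESeq2 also called 0 of 9 in each. Over 48 livers edgeR called 0 of 9 in each, with 0.250% and 0.0192% of all genes called and 1 of 9 at an unadjusted p under 0.05 in each, beside 6.66% and 4.54% of all genes. The intervals of the log2 fold change reached from -0.44 to -0.01 for Cebpa in DN:HET livers and from -1.16 to 1.41 for Onecut1, so changes of that size were not detectable for the latter. Prox1 ran from 99.0 through 112 to 158 CPM in KO:HET livers. Exact two-sided permutation tests of these 3 factors, unadjusted, gave p = 0.0466 for Prox1 in KO:HET and 0.0525 for Nr5a2 and 0.0918 for Cebpa in DN:HET livers. In DN:HOM livers the same test gave 5.83e-04 for Cebpa, 0.0035 for Foxa3, 0.0286 for Foxa2, 0.0303 for Hnf4a and 0.0845 for Onecut1. For the remaining factors it gave at least 0.0746 there. The value of Cebpa is the smallest that 7 against 7 livers can give. Over 48 livers the test gave 0.0126 for Cebpa, 0.0159 for Foxa3, 0.0357 for Prox1, 0.0706 for Nr5a2 and 0.179 for Foxa2. It gave 0.207 for Hnf4a, 0.379 for Onecut1, 0.458 for Foxa1 and 0.83 for Cebpb. In KO:HOM livers it gave 0.00233 for Cebpa, 0.0107 for Hnf4a and at least 0.197 for the rest.

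Wild-type livers, too, carried unequal levels of these factors from study to study. Of the 9, 4 were called in KO:WT against DN:WT livers, all higher in KO:WT, where 12% of all genes were called (6.47% higher), and 4 over 48 livers with 12.7% of genes called. Cebpb had the largest difference of the 4, with 148 through 211 to 261 CPM in KO:WT against 101 through 118 to 155 CPM in DN:WT livers (0.80, standard error 0.14, adjusted p = 1.28e-04 by edgeR). Only 1 of 8 KO:WT livers lay inside the DN:WT range. Foxa3 differed by 0.76 (standard error 0.18, adjusted p = 0.00296), Hnf4a by 0.37 (standard error 0.11, adjusted p = 0.0206) and Prox1 by 0.40 (standard error 0.14, adjusted p = 0.0497). Prox1 lost its call under 6 of 9 alternatives and Hnf4a with hepatocyte marker scaling (0.14, adjusted p = 0.415). For Foxa3 6 of 8 KO:WT livers lay above every DN:WT liver, and for Hnf4a also 6 of 8. Onecut1 differed by 0.59 (95% interval -0.69 to 1.87), and Cebpa by -0.07 (95% interval -0.28 to 0.15). Foxa3 averaged 29.3 ± 5.14 CPM in the 7 DN:WT livers and 49.3 ± 15.1 CPM (SD) in the 8 KO:WT livers, beside 40.6 ± 5.68 CPM in the 7 DN:HOM and 45.3 ± 8.08 CPM in the 8 KO:HOM livers. These differences cannot be told apart from colony, site, sequencing or a difference in sex.

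Relatives of the 9 factors and other liver factors were followed as lists. Of 9 paralogs, 6 passed the filter on low counts and were tested, and 2 of 6 rose in DN:HOM livers, near the 29.1% of all genes that did, and 1 of 6 over 48 livers. Those were Cebpd, an acute phase C/EBP factor (1.13, adjusted p = 1.04e-04), and Ddit3, the stress factor CHOP (0.64, adjusted p = 0.00831). Onecut2, at 98.0 CPM in DN:WT livers, did not pass the test (-0.03) and was more abundant in CPM than Onecut1. With library size alone and with hepatocyte marker scaling 4 of 6 paralogs were called higher in DN:HOM livers, with Onecut2 and Cebpg added. These scalings called 59.1% and 56% of all genes higher. The paralogs Hnf4g, Onecut3 and Nr5a1 did not pass the filter and were not tested, with group means of at most 0.224 CPM in homozygous and wild-type livers. In KO:HOM livers, where 7.87% of all genes fell, 1 of 6 paralogs was called lower, Cebpg (-0.25, adjusted p = 0.0422), a call that was lost over 48 livers and under every other alternative but DESeq2. With hepatocyte marker scaling 2 of 6 were called higher there (Cebpe and Onecut2), beside 38.4% of all genes. Of 12 other liver transcription factors all were tested, and 6 fell and 1 rose in DN:HOM livers. Together these are 7 of 12, beside 59.1% of all genes called, with 30% lower and 29.1% higher. The falls were Klf15 (-0.91, adjusted p = 6.98e-07), Hlf (-0.90), Tbx3 (-0.75), Gata4 (-0.69), Nr0b2 (-0.63) and Creb3l3 (-0.51). The rise was that of Gata6 (1.26, adjusted p = 1.90e-07), a GATA factor also used by cells other than hepatocytes. Hlf and Klf15 act in circadian and feeding control, and Nr0b2 encodes the corepressor SHP. In KO:HOM livers 1 of 12 fell, Klf15 (-0.41, adjusted p = 0.0250), which is about the 7.87% of all genes that fell. Over 48 livers the counts were 4 lower and 1 higher in DN:HOM and 0 in KO:HOM. With library size alone they turned to 2 lower and 6 higher in DN:HOM livers, the falls being Hlf and Klf15, and the median of the list to 0.10 beside 0.42 over all genes. In KO:HOM livers hepatocyte marker scaling gave 0 lower and 3 higher (Gata4, Zhx2 and Nfib), beside 38.4% of all genes higher.

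Textbook targets of the factors were read beside the factors themselves. Some targets, Cps1 among them, are also among the hepatocyte markers used for scaling. That scaling removes part of the change of the shared genes by construction. All 13 HNF4α targets fell in DN:HOM livers, with a median log2 fold change of -0.94 beside -0.01 over all genes, of which 30% fell, and 11 of 13 over 48 livers. With library size alone 8 of 13 fell, and all 13 lay below the median of all genes, a position that such scaling hardly changes. The largest falls were Cyp8b1, the sterol 12α-hydroxylase of bile acid synthesis (-2.78, from 378 to 54.8 CPM on average), and Apoa4, an apolipoprotein (-2.51). Over 48 livers the largest fall of this list was -1.89. Both Cyp8b1 and Apoa4 answer to other factors as well. In KO:HOM livers, where Hnf4a itself fell, 7 of 13 fell and 0 rose (median -0.29), beside 7.87% of all genes lower, 11.5% higher and a median of -0.02, led by Apoa4 (-1.25) and Apoa1 (-0.63), and 1 of 13 over 48 livers (4.12% of all genes lower), while with hepatocyte marker scaling 2 fell and 4 rose. FOXA targets fell in 5 of 7 and rose in 1 of 7 cases in DN:HOM livers (median -0.94). With library size alone and with hepatocyte marker scaling 4 of 7 fell and 2 of 7 rose there, with Pck1 added. The medians were then -0.51 and -0.52, beside 0.42 and 0.41 over all genes. Cps1, the entry enzyme of the urea cycle (-1.38), and G6pc, glucose-6-phosphatase (-1.24), had the largest falls and Igfbp1 rose (1.19, adjusted p = 0.0284). In KO:HOM livers 5 of 7 fell, beside 7.87% of all genes, Igfbp1 among them (-1.25, adjusted p = 0.0384). Over 48 livers 4 of 7 fell in DN:HOM and 1 of 7 in KO:HOM livers (2 of 7 in KO:HOM with library size alone and 0 of 7 with hepatocyte marker scaling), and Igfbp1 was called in neither (0.76 and -1.25).

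C/EBPα targets, which share 5 of 6 genes with the FOXA list, fell in 5 of 6 cases in DN:HOM and 3 of 6 in KO:HOM livers, with medians of -0.99 and -0.43, beside 30% and 7.87% of all genes that fell. The KO:HOM count was 1 of 6 over 48 livers, 2 of 6 with library size alone and 0 of 6 with hepatocyte marker scaling, all by edgeR. Some of these targets, Cps1 among them, are themselves markers in the hepatocyte marker scaling. In DN:HOM livers library size alone and hepatocyte marker scaling each gave 4 of 6 lower and 1 higher (Pck1). Of the C/EBPβ targets, which are acute phase genes, 3 of 6 rose, 1 fell and 2 did not pass the test in DN:HOM livers, where 29.1% of all genes rose, with Orm2 at 2.98 (adjusted p = 7.20e-07), Hp, haptoglobin, at 1.40, and Crp at -0.28 (adjusted p = 0.0160), and in KO:HOM livers 2 of 6 rose (Orm2 at 1.90 and Hp at 0.47), beside 11.5% of all genes, and 1 of 6 over 48 livers. Over 48 livers the largest rise of the C/EBPβ list in DN:HOM livers was 1.78. NR5A2 targets fell in 3 of 4 cases in DN:HOM livers (median -1.22), led by Cyp8b1 and by Cyp7a1, the rate-limiting enzyme of bile acid synthesis (-1.81, adjusted p = 6.22e-05). In KO:HOM livers the 4 values ran from -0.78 (Cyp7a1) to 0.51 (Cyp8b1), and none passed the test by edgeR or DESeq2, while with each study fitted alone Cyp7a1 was called lower, and with hepatocyte marker scaling Cyp8b1 and Scarb1 were called higher. Scarb1 was not called in DN:HOM livers (-0.13) and was called higher there with library size alone and with hepatocyte marker scaling. Over 48 livers the counts in DN:HOM livers were 4 of 6 lower for C/EBPα, 3 of 6 higher and none lower for C/EBPβ (the call of Crp was lost, as it was with upper-quartile scaling, library size alone and hepatocyte marker scaling) and 2 of 4 lower for NR5A2 targets. Several listed targets are also targets of LXRα or of other factors, and the activity of no factor was measured. Hepatocyte marker genes themselves were mixed in DN:HOM livers, with 3 of 15 higher, 7 lower and a median of -0.12, also 3 and 7 over 48 livers. Of the same 15, 1 was higher and 3 lower in KO:HOM livers (11.5% and 7.87% of all genes), and over 48 livers neither a rise nor a fall was called by edgeR.

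**Figure D5:**
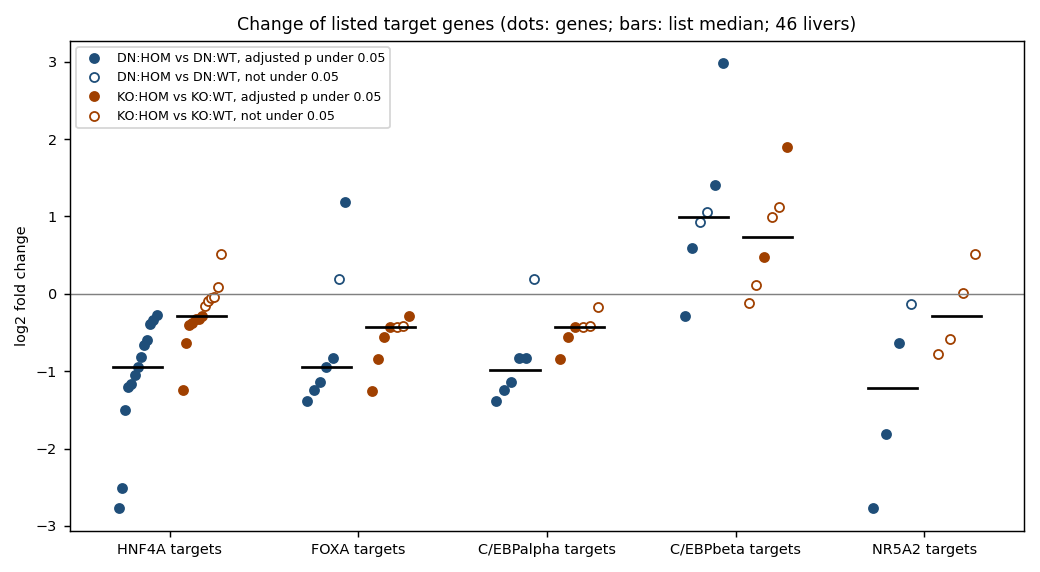
Log2 fold change of textbook target genes in homozygous against wild-type livers of the same study, by list, in 46 livers. Filled dots have an adjusted p under 0.05 by edgeR and bars are list medians. All 13 DN dots of the HNF4A list lie below 0, at -2.78 to -0.28, and 5 of 6 C/EBPbeta targets lie above 0.

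Across the 46 livers the factors went together to unequal degrees. Foxa2 and Prox1 had the lowest Pearson correlation of log2 CPM, -0.03, and every other pair lay above 0. On deviations from group means the lowest was -0.43, for Cebpb and Prox1. Of 36 pairs, Foxa1 and Foxa2 had the highest Pearson correlation of log2 CPM, 0.73 (Spearman 0.72), and 0.73 for the deviations from group means. Foxa2 and Onecut1 followed with 0.62, and 0.59 on deviations. Livers of a study share its colony and its processing, all 46 share a diet, and depth differed among them, so the values are descriptions. Over 8692 genes with a mean log2 CPM of at least 3, the genes most like each factor differed from factor to factor. Cebpa went most closely with Mtif3 (0.89), Fkbp8 (0.86) and Tle5 (0.86), and Hnf4a with Trp53inp2 (0.85), Shld2 (0.81) and Crp (0.79). Among the genes closest to Cebpb were the clock gene Per1 (0.88) and Rhbdd2 (0.87), and on deviations from group means its overlapping neighbour Peds1 (0.78), its paralog Cebpd (0.73) and Tob2 (0.70). Foxa2 went with Phlda1 (0.81), Gm28592 (0.80) and Cish (0.77), and Foxa1 with Gm28592 (0.73), Foxa2 and Phlda1 (0.72). The genes closest to Foxa3 were Ahsg (0.81), Mpnd (0.77) and Zfp970 (0.77). Those closest to Onecut1 were Arid5b (0.82), B4galt1 (0.80) and Wdr45b (0.79). Prox1 went with Nr1h4, the bile acid receptor FXR (0.74), Snw1 (0.72) and Masp1 (0.72), and Nr5a2 with Paics (0.76), Eif4b (0.76) and Kat2b (0.75).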

How the data were processed

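Liver RNA of 48 mice, 8 in each of 6 genotype groups, was sequenced from stranded polyA libraries. Per the labels and the study's methods, the authors aligned reads to GRCm39 with STAR 2.5.0a (annotation release 104), and the deposited files give raw read counts per gene for each strand setting. The sense-strand counts were used. Between 24.0 and 35.0% of reads lay in rows that name no gene and were left out. Of 55416 gene identifiers, 98.8% were found in the annotation at hand.

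Genes were kept with edgeR's filterByExpr and scaled by TMM, and group means were compared with edgeR 4.0.16 (quasi-likelihood test, Benjamini-Hochberg adjustment over all genes, threshold 0.05) in R 4.3.3. Fold changes, standard errors and intervals are on the log2 scale. The fit used 46 livers and, as an alternative, 48. Other alternatives were DESeq2 1.42.0, scaling by library size, upper quartile or 15 hepatocyte markers, other filters, unstranded counts, each study alone, omission of 2 shallow livers, and an adjusted p under 0.01. The number of livers and the reads per gene set the precision, and labels name each library as a separate mouse. No pair of libraries agreed within counting error. On simulated counts for DN:HOM against DN:WT with 200 of 15260 genes changed, edgeR called 43.4% of log2 changes of 0.5, 80.9% of 1 and 94% of 2. In the real comparison 59.1% of genes were called, which makes the adjustment less strict. The simulated shares therefore do not give the power of that comparison.

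The 9 factors, the gene lists (paralogs, other liver transcription factors, textbook targets of 5 factors, markers of 9 cell types) and the tests were chosen with earlier results of these data known. All 9 factors were named. From each list the 2 largest rises and falls past the threshold in each homozygous group were named, and any member of the transcription factor lists could be, with genes that overlap a factor and the 3 genes most alike each factor. Clec4f, Ly6g and Scarb1 were singled out after their values were seen. Promoters were read from GRCm39 with GENCODE transcript starts. Some genes of these lists, and 1 of the genes most alike a factor, are not reported here.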

Additional observations from a re-analysis of the deposited data

Results flagged for a closer look

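In tests of the highest and lowest liver of each group by Dixon's criterion, 9 of 72 stood apart. The 72 are not separate tests, since DN:WT and DN:HOM were tested with 7 and again with 8 livers. The usual rate of about 1 in 20 assumes normal values, which CPM need not follow. Onecut1 supplied 4 of the 9. Its highest values were 41.811 CPM in KO:WT animal 34, 50.75 CPM in KO:HET animal 15, 6.595 CPM in DN:HOM animal 18 (7 livers) and 22.448 CPM in the library labelled DN:HOM animal 12 (8 livers). That library also stood apart for Foxa2 with 51.958 CPM, and DN:HET animal 1 for Foxa2 with 55.522 CPM. DN:HET animal 14 stood apart for both Hnf4a, with 734.575 CPM, and Foxa3, with 56.093 CPM. KO:WT animal 14 stood apart for Prox1 with 241.387 CPM.

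The homozygous effect on Cebpa differed between the studies, by -0.401 on the log2 scale (adjusted p = 0.0341 by edgeR's quasi-likelihood test over all genes, 46 livers). All 7 DN:HOM livers lay below all 7 DN:WT livers, and 4 of 8 KO:HOM livers below all 8 KO:WT livers. The difference did not pass with 48 livers, and alternatives gave -0.41 to -0.08 with adjusted p from 0.0304 to 0.627.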

How the results depend on the processing

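Of 522 values of the 9 factors under an alternative, 457 kept their direction and side of the threshold, 29 lost a call, 8 gained one and 28 reversed. Over all 48 livers the number of factors called was 1 in DN:HOM, 1 in KO:HOM and 0 for the difference of the effects. The difference gave 2 with DESeq2, 3 with library size alone, 0 with no filter, 2 with a mean CPM of at least 1 and 2 without the 2 shallow livers. KO:HOM gave 0 with library size alone and 0 with hepatocyte marker scaling. With library size alone the calls in DN:HOM were 4 higher and 1 lower (59.1% and 11.1% of all genes), and with hepatocyte markers 3 higher and 1 lower (56% and 10.5%), sharing 2 with those of the 46 livers each. At an adjusted p under 0.01 the counts were 1 in DN:HOM, 0 in KO:HOM, 0 for the difference and 2 for KO:WT against DN:WT.

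Most reversals came with the scalings that move all genes. With library size alone DN:HOM gave Hnf4a 0.28, Foxa1 0.13, Cebpb 0.39, Prox1 0.15 and Nr5a2 0.27, KO:HOM gave Prox1 0.0746 and Nr5a2 0.0129, DN:HET gave Cebpb 0.0199, and the difference gave Prox1 0.0771 and Nr5a2 0.26. With hepatocyte markers DN:HOM gave Hnf4a 0.27, Foxa1 0.13, Cebpb 0.38, Prox1 0.13 and Nr5a2 0.25, KO:HOM gave Foxa2 0.16, Foxa3 0.16, Cebpb 0.13, Prox1 0.22, Onecut1 0.0239 and Nr5a2 0.17, DN:HET gave Cebpb 0.0938, the difference gave Nr5a2 0.0794, and KO:WT against DN:WT gave Nr5a2 -0.10. Upper-quartile scaling gave Cebpb 0.0414 in DN:HOM. Over 48 livers KO:WT against DN:WT gave Cebpa 0.0232, and without the shallow livers KO:HET gave Foxa3 -0.0015 and Cebpb -0.0289. Relative to the median of all genes, Cebpa in DN:HOM lay at -0.72 to -0.54, Foxa2 at -0.60 to -0.34, Foxa3 at 0.38 to 0.52, and in KO:HOM Hnf4a at -0.35 to -0.32 and Cebpa at -0.33 to -0.29. The scalings shift all genes of a liver alike and could hardly move these values, so the ranges are a check on the other alternatives only.

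Of all genes, DN:HET gave 361 calls, 39 over 48 livers, 617 with DESeq2, 644 with hepatocyte markers, 239 with each study alone and 30 at the stricter threshold. KO:HET gave 3, 10 with DESeq2 and 8 with no filter. KO:HOM gave 3048, 2016 over 48 livers, 6246 with hepatocyte markers and 1755 at the stricter threshold. The difference gave 5456 and 1636 over 48 livers. KO:WT against DN:WT gave 1887, 4500 with hepatocyte markers and 940 at the stricter threshold. Unstranded counts moved the mean CPM of Cebpb in all 6 groups, and all 48 livers that of Onecut1 in DN:HOM, to 5.05. No paired analysis was possible because animal numbers are unique within a study and the studies used different animals. Depth limits Onecut1, with 16 to 273 reads in DN:WT livers. The cause was not tested for changes other than those made by fewer genes, fewer livers or the stricter threshold.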
